A study of Mus musculus with 2 samples.

Results

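The guanylate-binding proteins (GBPs) and immunity-related GTPases (IRGs) are 2 families of interferon-induced GTPases, and 10 of their mouse genes were examined here: Gbp2, Gbp3, Gbp4, Gbp5, Gbp6, Gbp7, Iigp1, Irgm1, Irgm2 and Igtp. They were chosen by gene symbol, and a gene had a value where the platform annotation gave it a probe set of its own, a probe set being the group of array probes summarised as 1 intensity. Such a probe set, 1 each, was found for 6 of the 10 genes, among 19935 genes measured in all: Gbp3, Gbp4, Gbp5, Gbp7, Iigp1 and Irgm1. The other 4 (Gbp2, Gbp6, Irgm2 and Igtp) had only probe sets that the annotation gives jointly to several genes, so no value is given for any of them singly.

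The RNA came from dendritic cells (DCs), the white blood cells that present antigen to T cells, isolated by flow cytometry from the spleen of C57BL/6 mice of wild-type genotype, 8 weeks old. The cells were cultured with vehicle (1 sample, also titled as medium) or with IL-27 (1 sample), a cytokine of the IL-12 family, and each sample was read on 1 array. The labels give the duration as "ON", which is not expanded here, and do not give the IL-27 dose or the number of mice. Every difference below is between these 2 arrays, with no replicate check, no error and no p-value.

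GBPs and IRGs gather on vacuoles that hold intracellular microbes and on cytosolic bacteria, and help to break them open. Interferon-gamma induces them: its receptor activates the kinases JAK1 and JAK2, and the signal reaches the DNA motif called GAS. Type I interferons also act on many of these genes, through the motif called ISRE, which STAT2 with IRF9, IRF1 and other interferon regulatory factors bind. The IL-27 receptor, made of Il27ra and Il6st (gp130), signals through JAK kinases, with STAT3 among their targets.

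The sequences before the gene starts are shown first, because the 2 motifs through which interferons act on these genes can be read in them. RefSeq promoter windows (build GRCm38.p6, 300 bases, from 250 before to 50 after the annotated start) were found for 7 of the 10 genes, Gbp3 with 2 windows. The windows were searched on both strands for GAS as TTCNNNGAA, where N is any base, and for the ISRE core as GAAA, any 2 bases and GAAA again, and overlapping matches were kept. Each of the 7 genes held an ISRE core match in at least 1 window, against 3.99% of all 27025 genes with windows, and 4 of the 7 (Gbp5, Gbp7, Irgm2 and Igtp) held a GAS match, against 9.55%. Counted by window, 7 of their 8 windows held an ISRE core match, against 3.44% of all 32851 windows, and 4 held a GAS match, against 8.30%. Of 8 other GBP and IRG genes with a window, 5 held an ISRE core match and 3 a GAS match. The windows of 4 measured genes are given 5′ to 3′ along the gene's strand, with GAS and ISRE core matches in capitals: Gbp3 at chr3:142559794-142560093 (plus strand, the first of its 2 windows), Gbp5 at chr3:142496684-142496983 (plus), Gbp7 at chr3:142530086-142530385 (plus) and Irgm1 at chr11:48871371-48871670 (minus).
Gbp3: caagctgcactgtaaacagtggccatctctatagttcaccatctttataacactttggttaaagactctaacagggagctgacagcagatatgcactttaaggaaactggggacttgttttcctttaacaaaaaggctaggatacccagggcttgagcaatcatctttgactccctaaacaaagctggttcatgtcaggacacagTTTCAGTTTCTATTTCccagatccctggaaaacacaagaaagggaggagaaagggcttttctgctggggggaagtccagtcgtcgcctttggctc
Gbp5: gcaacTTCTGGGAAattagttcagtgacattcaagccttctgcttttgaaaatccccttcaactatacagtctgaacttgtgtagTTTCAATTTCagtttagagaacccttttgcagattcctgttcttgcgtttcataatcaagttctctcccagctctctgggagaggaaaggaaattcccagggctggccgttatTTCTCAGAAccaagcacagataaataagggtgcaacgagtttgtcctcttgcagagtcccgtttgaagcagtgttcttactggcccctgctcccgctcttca
Gbp7: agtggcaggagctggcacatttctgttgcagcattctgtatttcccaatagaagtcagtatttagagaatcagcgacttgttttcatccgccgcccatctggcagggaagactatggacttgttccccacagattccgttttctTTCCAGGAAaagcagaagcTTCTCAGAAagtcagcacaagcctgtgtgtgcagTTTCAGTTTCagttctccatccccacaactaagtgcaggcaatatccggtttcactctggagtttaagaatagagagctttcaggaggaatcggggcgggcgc
Irgm1: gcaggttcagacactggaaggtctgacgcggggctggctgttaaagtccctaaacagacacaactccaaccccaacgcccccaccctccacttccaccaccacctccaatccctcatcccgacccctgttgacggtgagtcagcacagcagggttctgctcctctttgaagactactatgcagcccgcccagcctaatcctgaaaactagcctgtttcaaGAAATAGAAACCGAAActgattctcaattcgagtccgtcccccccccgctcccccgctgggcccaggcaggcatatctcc

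In Gbp3 and Irgm1 the capitals are a pair of overlapping ISRE core matches close to the start, beginning 45 and 39 bases before it in Gbp3 and 30 and 24 bases before it in Irgm1. The second Gbp3 window held neither motif. Gbp7 had GAS matches 106 and 87 bases before the start and an ISRE core match at 53 bases. Gbp5 had GAS matches at 245 and 52 bases and an ISRE core match at 165 bases. Gbp2 had an ISRE core match alone, at 59 bases. A match describes these letters only and shows neither binding nor use of the site in DCs.

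**Figure D1:**
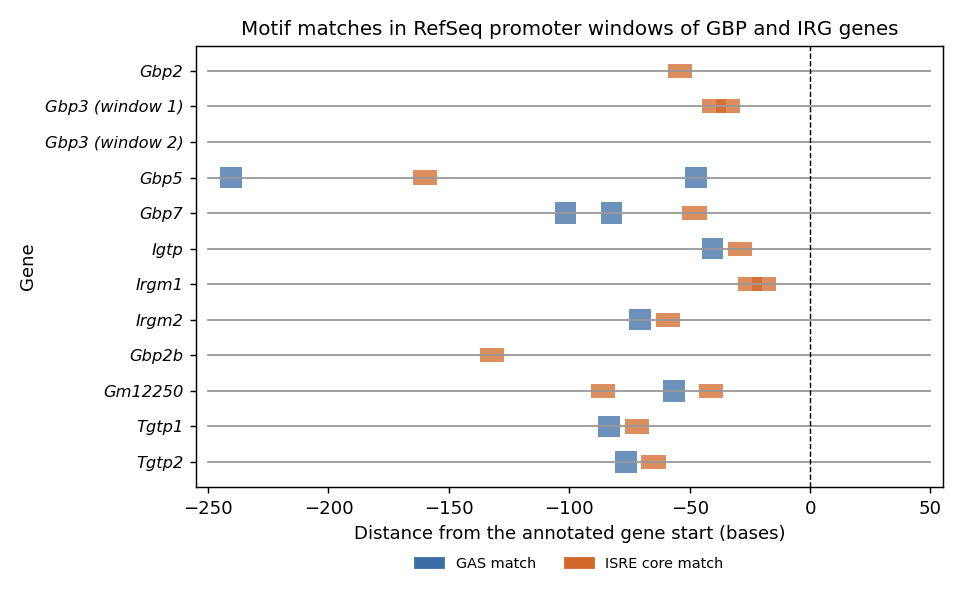
Positions of GAS matches (blue, tall) and ISRE core matches (orange, short) in the RefSeq promoter windows, as distance in bases from the annotated gene start (dashed line), for the 7 genes with a window and for Gm12250, Tgtp1, Tgtp2 and Gbp2b. ISRE core matches stand in all windows drawn except the second of Gbp3, and Igtp, Irgm2, Tgtp1 and Tgtp2 share a GAS match directly followed by an ISRE core match. Of 8 other GBP and IRG genes with a window, 5 held an ISRE core match. Not drawn are 9930111J21Rik1, with a match after its start, and Ifi47, Irgq and 9930111J21Rik2, with neither motif.

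Igtp and Irgm2, regulatory IRGs that sit on the cell's own membranes, carried a GAS match and, with 2 bases between, an ISRE core match. This spacing was noticed in the sequences and then counted, and 5 of the 32851 windows (0.015%) held it. All 5 lie on chromosome 11 in the IRG clusters: Igtp and Irgm2 in one, and Tgtp1, Tgtp2 and Gm12185, which lie beside Irgm1 in gene order, in the other. The 37 bases around the pair show how alike these 5 copies are, with the GAS and ISRE core matches in capitals: Igtp at chr11:58199503-58199539 (plus strand), Irgm2 at chr11:58214894-58214930 (plus), Tgtp1 at chr11:48992306-48992342 (minus), Tgtp2 at chr11:49064265-49064301 (minus) and Gm12185 at chr11:48927240-48927276 (minus).
Igtp: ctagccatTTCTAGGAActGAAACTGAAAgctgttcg
Irgm2: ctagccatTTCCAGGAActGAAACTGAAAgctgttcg
Tgtp1: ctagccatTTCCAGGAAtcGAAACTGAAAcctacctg
Tgtp2: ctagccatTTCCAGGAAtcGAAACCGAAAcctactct
Gm12185: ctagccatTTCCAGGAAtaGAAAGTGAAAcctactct

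Most of the measured GBPs were lower on the IL-27 array and Irgm1 was not. By a rule of size, a gene was called lower or higher when the arrays differed at least 2-fold and its brighter value reached 96.2, the median intensity over both arrays. Gbp3, Gbp4 and Gbp7 were lower, 3 of the 6 measured genes, where 7.36% of all 19935 genes, 13.2% of the 11140 genes that reached the level minimum and 13.8% of the genes nearest to these 6 in level were lower. None of the 6 was higher, against 0.848%, 1.52% and 1.13% in the same order. With a 1.5-fold rule Gbp5 and Iigp1 were counted lower too, 5 of the 6, where 18.8% of all genes were, although Iigp1 has no fold above background, as given below. The median deposited log2 difference (IL-27 minus vehicle) of the 6 genes was -1.02, against 0.04 for all genes and -0.36 for the genes nearest in level, taken as the 1000 nearest to each of the 6 and pooled. With IL-27 values near background set to the limit described next, and a gene with no fold set to 0, the median of the 6 was -0.94. In bulk RNA, fewer cells expressing a gene and less of its RNA per cell cannot be told apart.

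Several of these genes came close to the level of genes not expected in DCs. The 1027 olfactory receptor genes had a 95th percentile of 77.3 (vehicle array) and 129 (IL-27 array), and a value at or below it is said here to lie within the olfactory range. On the vehicle array 0 of the 6 genes lay within that range, and on the IL-27 array 4 did (Gbp3, Gbp4, Gbp7 and Iigp1). For Gbp3, Gbp4 and Gbp7 the fold against the limit is given, as "at least", and their log2 differences below are those of the deposited values. For Iigp1 no fold is given. Against the limit Gbp3, Gbp4 and Gbp7, 3 of the 6, were still 2-fold lower, where 5.67% of all genes were.

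Gbp4 went from an intensity of 358 in the vehicle sample to 117 in the IL-27 sample, a log2 difference of -1.61. Against the limit it was at least 2.77-fold lower. Gbp3 stood at 280 and 103 in the same order, a difference of -1.45 and at least 2.16-fold lower. Of the 1000 genes nearest in level, 3.5% were lower by as much as Gbp4 and 3.4% by as much as Gbp3. These were the largest differences among the 6 genes, and both stayed past 2-fold under the 4 other scalings tried.

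Gbp7, a GBP linked to assembly of the phagocyte oxidase, had intensities of 277 (vehicle) and 127 (IL-27), a difference of -1.12 and at least 2.14-fold lower. Genes of its level were themselves mostly lower, with a median difference of -0.49, and 12.2% of the 1000 nearest were lower by as much. Gbp7 was short of the rule of size with quantile normalization (-0.93) and with the level trend removed (-0.80). Gbp5, which promotes inflammasome assembly in macrophages, had 233 (vehicle) and 135 (IL-27) and was 1.73-fold lower, short of the rule. Its difference of -0.79 was reached by 26.7% of the 1000 genes nearest in level, whose median was -0.47.

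Neither measured IRG gene was lower or higher by the rule of size. Iigp1, which encodes the effector IRG Irga6 that coats the vacuole of Toxoplasma gondii, had 124 (vehicle) and 66.1 (IL-27). Its IL-27 value lay within the olfactory range and its vehicle value below the limit of the IL-27 array, so no fold between the arrays is given and its difference is not read as a change.

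Irgm1, a regulatory IRG with roles in autophagy and in protecting host membranes, had 379 (vehicle) and 398 (IL-27). Its difference was 0.07, where genes of its level had a median of -0.55. The sign of this difference turned with the scaling, from -0.03 with median centring to 0.41 with quantile normalization and 0.50 with the level trend removed. Irgm1 was neither lower nor higher by the rule of size under each of these scalings. Its promoter window holds a pair of overlapping ISRE core matches like that of Gbp3, which was lower.

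**Figure D2:**
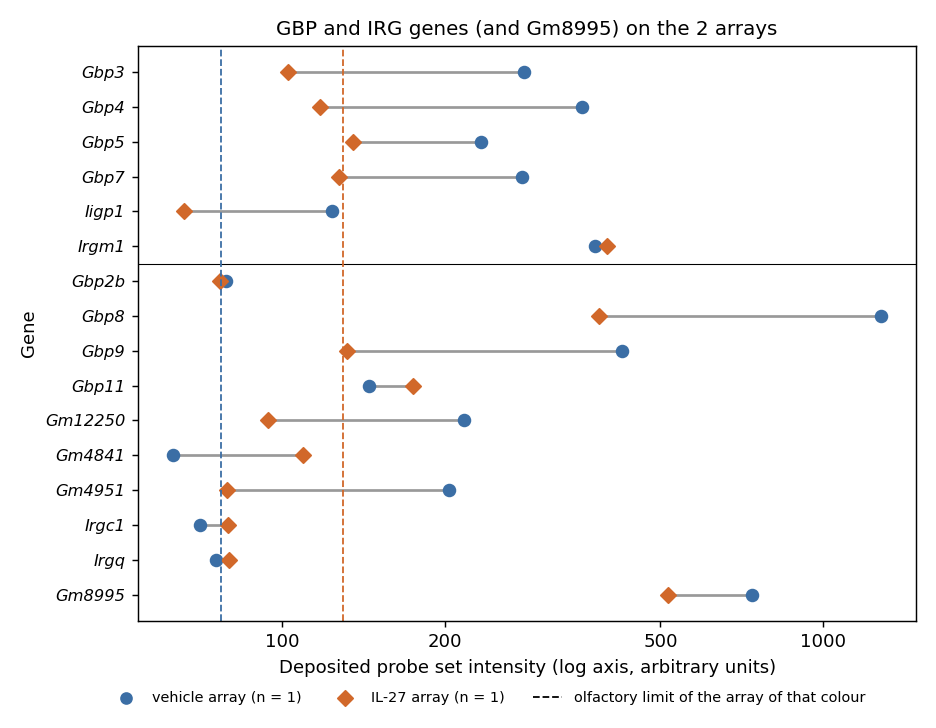
Deposited intensity (log axis) of each gene with vehicle (blue circles) and IL-27 (orange diamonds), 1 array per group, for the 6 measured genes above the line and, below it, 9 other GBP and IRG genes and Gm8995. Dashed lines mark the olfactory limits, 77.3 for vehicle (blue) and 129 for IL-27 (orange). Gbp3, Gbp4, Gbp7 and Iigp1 pass from above the vehicle limit to within the olfactory range of the IL-27 array, and Irgm1 stays at 379 and 398.

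Of the other GBP and IRG genes looked up, 9 were measured, 6 of them reached the level minimum, and 4 of those were lower and 0 higher, where 13.2% and 1.52% of all genes at that minimum were. The median difference of all 9 was -0.04, with 5 genes below 0 and 4 above. It includes Gbp2b, Irgc1 and Irgq, which did not reach the level minimum, while all 6 genes above did. The -0.04 is therefore not on the same footing as the -1.02 of those 6. Gbp8 and Gbp9, which lie in the same cluster as Gbp4, went from 1278 to 385 and from 424 to 132. They were 3.32-fold and 3.22-fold lower. Gm12250, which encodes Irgb10, an IRG that acts with GBPs on bacterial membranes, went from 217 to 94.4 and was at least 1.68-fold lower. Gm4951, in the same cluster as Iigp1, went from 204 to 79.2 and was at least 1.57-fold lower. Against the olfactory limit Gbp8 and Gbp9 were still 2-fold lower, and Gm12250 and Gm4951 were not.

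The remaining genes of both families were not called. Gbp11, which RefSeq lists as a transcribed pseudogene, had 145 (vehicle) and 174 (IL-27). Gm4841, in the cluster of Iigp1, had 63.0 and 109, each within its array's olfactory range. Gbp2b (78.9 and 77.0), Irgc1 (70.6 and 79.5) and Irgq (75.5 and 79.8) did not reach the level minimum. Over both families, 5 of 7 GBP genes that reached the level minimum were lower, and 2 of 5 IRG genes, against 13.2% of all genes at that minimum. The 2 IRG genes are Gm12250 and Gm4951. Among genes with a probe set of their own, no IRG gene was thus 2-fold lower against the olfactory limit, while the 5 GBP genes were. The probe sets given jointly to the IRG genes 9930111J21Rik1 and 9930111J21Rik2 were 2.57-fold and 3.02-fold lower, above the limit on both arrays. The median difference was -1.29 over 8 GBP genes measured and 0.07 over 7 IRG genes. These medians include genes below the level minimum, Gbp2b among the GBPs and Irgc1 and Irgq among the IRGs. The 5 IRG genes at that minimum had deposited differences of -1.36 (Gm4951), -1.20 (Gm12250), -0.91 (Iigp1), 0.07 (Irgm1) and 0.79 (Gm4841).

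Gene order in RefSeq (GRCm38.p6) was used to set the clusters beside the genes that flank them. Flanking the Gbp5, Gbp7 and Gbp3 cluster, Pdlim5 (542 with vehicle, 714 with IL-27) and Gtf2b (345 and 304) were neither lower nor higher by the rule of size. On the Gbp8 side of the Gbp4 cluster, Abcg3, an ABC transporter gene of another family, went from 1814 to 541 and was 3.35-fold lower. On the other side, Lrrc8b had 190 and 135 and Lrrc8c 1311 and 955. Beside Iigp1, Smim3 had 445 and 649, and beside Irgm1, Trim7 had 141 and 79.9, both short of the rule of size.

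**Figure D3:**
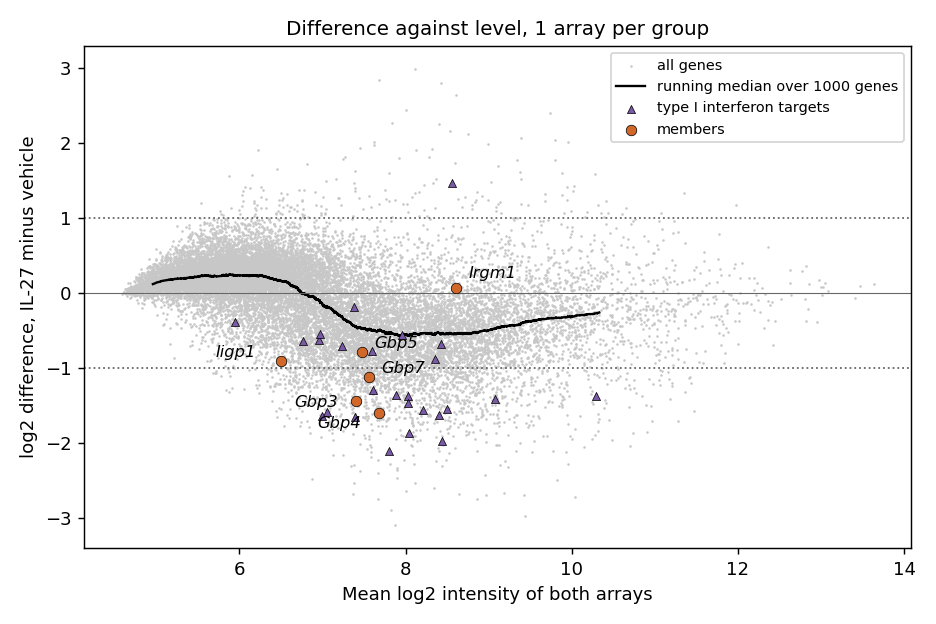
Log2 difference (IL-27 minus vehicle) against the mean log2 intensity of both arrays, 1 point per gene, 1 array per group. The black line is the running median over 1000 genes, dotted lines mark 2-fold, orange circles are the 6 measured genes and purple triangles are type I interferon targets. All but 1 of the 6 genes lie below the line of genes of their level and Irgm1, at 0.07, lies above it.

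Upstream of these genes stand the receptors and factors that carry the interferon-gamma signal. By the rule of size 1 of 10 such genes at the level minimum was lower and 0 were higher, against 13.2% and 1.52% of all genes at that minimum, with a list median of -0.26 that turned to 0.044 with the level trend removed. This share lower is near that of all genes. Ifngr1 and Ifngr2, the receptor chains, went from 3832 to 2186 and from 2173 to 2675. Jak1 and Jak2 differed by -0.41 and -0.19, and the feedback inhibitor Socs1 by 0.04. The factors Irf1 and Irf8, which act on GBP and IRG promoters, went from 858 to 941 and from 2394 to 1502. Irf2, an antagonist of Irf1, was the lower gene, 2.01-fold, and was short of the rule after quantile normalization, after removal of the level trend and with an offset of 16. Ifng itself, made by T and NK cells, had 59.1 and 78.2, each within its array's olfactory range.

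On the side of IL-27 and type I interferon, 1 of 9 genes at the level minimum was lower and 0 higher, also a share near that of all genes. Il27ra went from 152 to 125, the latter within the olfactory range, and Il6st from 1414 to 1205. Stat2 and Irf9, which act together at the ISRE, differed by -0.46 and -0.11, and Stat3 by 0.42. Tyk2, a kinase of the type I interferon receptor, was 2.16-fold lower, and short of 2-fold after quantile normalization or removal of the level trend.

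Other targets of the interferons were set beside the GTPases. Among type I interferon targets, the 25 at the level minimum held 15 lower genes and a single higher one, Oasl1, where 13.2% and 1.52% of all genes at that minimum were lower and higher. The median over 26 measured genes was -1.37, and -1.05 with genes near background at their bound. Herc6, a HECT-type ligase, was at least 3.58-fold lower, Ddx58, which encodes RIG-I, 3.92-fold, Ifit3 3.64-fold and Samd9l at least 2.30-fold, while Oasl1 was 2.76-fold higher. Among other interferon-gamma targets, 3 of 18 were lower, a share near the 13.2% of all genes at the level minimum, and Cxcl11 alone was higher. Their median over 22 measured genes was -0.32. Ciita, the regulator of MHC class II genes, was 3.18-fold lower, the Fc receptor Fcgr1 at least 2.87-fold and the proteasome subunit Psmb10 2.17-fold. The chemokine Cxcl11 was 2.77-fold higher, and Cxcl10 had 667 and 649. Whether the GTPases differ from either list was not tested. In their promoter windows, 10 of 20 type I interferon targets held an ISRE core match and 3 of 16 other interferon-gamma targets did, against 3.99% of all genes with windows.

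Among the machinery with which GBPs and IRGs work, ubiquitin-like conjugation proteins of the autophagy system (Atg3, Atg5, Atg7, Atg12 and Atg16l1) are needed to bring these GTPases to vacuoles, and of 16 genes in that list, which reached the level minimum throughout, the rule called 2 lower and 1 higher. The share lower is near the 13.2% of all genes at that minimum, where 1.52% were higher. Sqstm1, the p62 adaptor, went from 2688 to 6055, 2.25-fold higher. Lgals3, a galectin that marks broken vacuoles, had 1225 and 2315. Trim21 was 2.24-fold lower and Atg5 at least 1.95-fold, and both were short of 2-fold after quantile normalization or removal of the level trend. Inflammasome genes act where GBPs expose bacterial products, and 5 of 11 were lower, against 13.2% of all genes at the level minimum, and 0 higher. Their median was -0.93, and -0.86 with genes near background at their bound. Il18 was 4.12-fold lower, Naip2 2.98-fold, Casp1 at least 2.58-fold and Nlrc4 at least 1.44-fold.

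**Figure D4:**
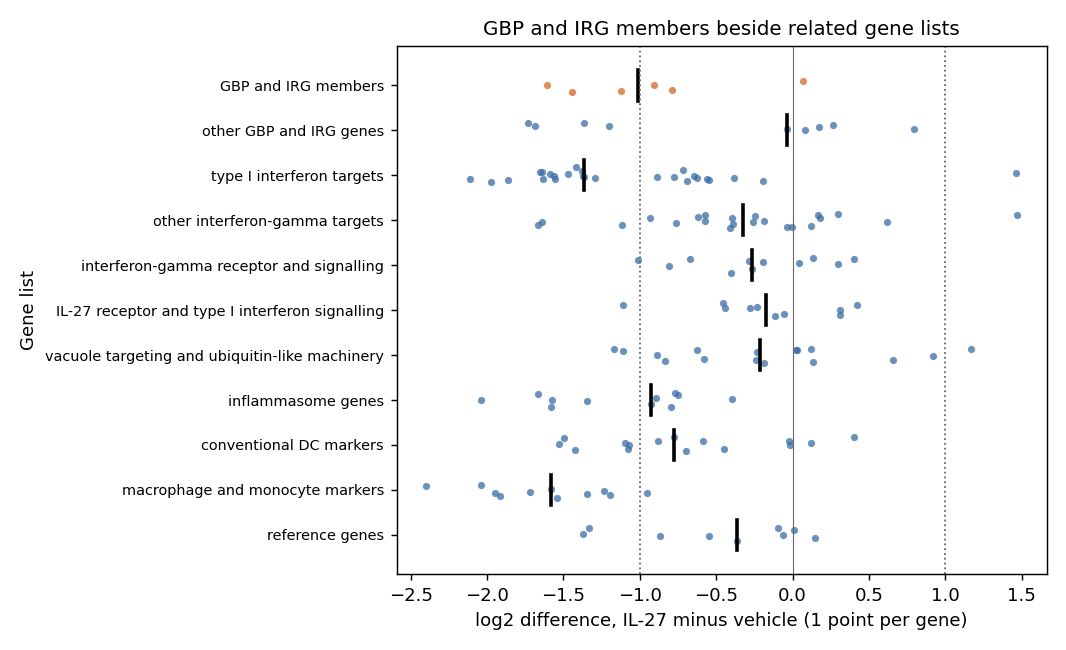
Log2 difference (IL-27 minus vehicle) of each gene in the GBP and IRG set (orange) and in related lists (blue), 1 point per gene, with a black bar at each list's median and dotted lines at 2-fold. The medians are -1.02 for the 6 measured genes, -0.04 for the 9 other GBP and IRG genes and -1.37 for type I interferon targets. Those 9 include Gbp2b, Irgc1 and Irgq, which did not reach the level minimum. They are -0.32 for other interferon-gamma targets and -1.58 for macrophage and monocyte markers.

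Markers of cell types moved alongside. Genes that mark macrophages and monocytes were lower in 10 of 11 cases, against 13.2% of all genes at the level minimum, and higher in 0. Their median was -1.58, and their summed intensity went from 26575 to 9445. Of 14 conventional DC markers at the level minimum 5 were lower, also against 13.2%. The 15 measured had a median of -0.77, and all but Clec10a lay above the olfactory limit of the vehicle array. The summed intensity of these 15 went from 33767 to 25381. Much of both sums came from the class II genes H2-Aa (7080 with vehicle, 7697 with IL-27) and H2-Ab1 (8357 and 8222). These 2, the brightest of the 15, differed by 0.12 and -0.02. The 5 lower DC markers were Cd8a, Xcr1, Sirpa, Dpp4 and Flt3, with differences from -1.53 (Cd8a) to -1.08 (Flt3). Of the 15 DC markers, 13 lay below 0 and 2 above. The 2 summed intensities therefore do not show how most of these markers differed. B cell markers were lower in 2 of 6, against the same 13.2%. T cell, NK cell and neutrophil markers lay within the olfactory range of the IL-27 array in 5 of 6, 6 of 7 and 5 of 6 genes. Only 3, 3 and 1 of them reached the level minimum, so few could be called, and 0, 1 and 0 were lower. Plasmacytoid DC markers were lower in 0 of 4. The part of these markers in the differences of the GTPases was not tested. Reference genes were lower in 2 of 9 (Hprt and Tfrc), again beside 13.2% of all genes at the level minimum. Their median was -0.37, with 7 genes below 0 and 2 above. Actb and Ppia differed by -0.06 and -0.10, and Sdha by -0.87. Tfrc was at least 1.83-fold lower, so against the olfactory limit 1 of the 9 was 2-fold lower, where 5.67% of all genes were.

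The arrays themselves differed in distribution. The median intensity of the 28815 probe sets was 92.4 (vehicle) and 98.9 (IL-27), with upper quartiles of 267 and 215. As deposited, 169 genes were higher and 1468 lower, so that higher genes made up 10.3% of those called. Quantile normalization made that share 20.6% (235 and 907 genes), and removal of the level trend made it 26.2% (264 and 744).

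**Figure D5:**
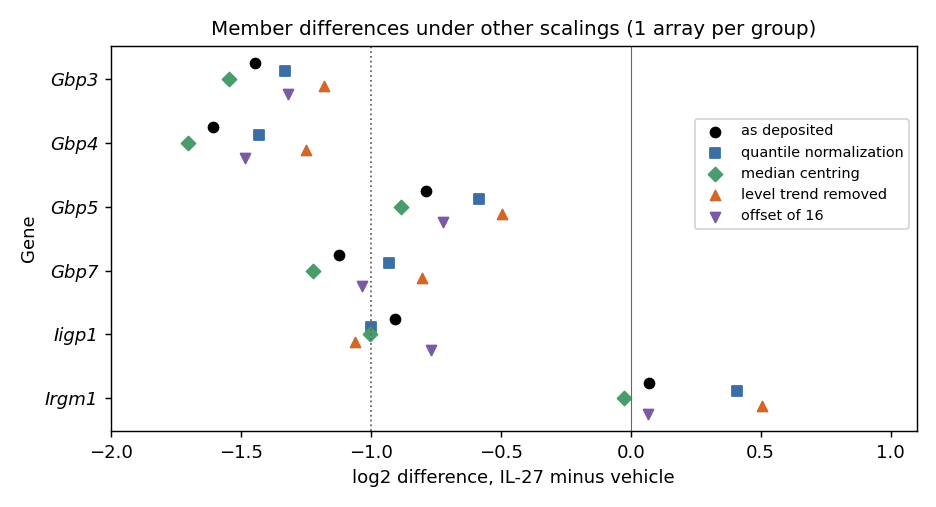
Log2 difference (IL-27 minus vehicle) of each of the 6 measured genes as deposited and under 4 other scalings, 1 array per group, with the dotted line at 2-fold lower. Gbp3 and Gbp4 stay past the dotted line, Gbp5 stays short of it, Gbp7 crosses it, Iigp1 lies on both sides of it with an IL-27 value within the olfactory range, and Irgm1 lies between -0.03 and 0.50.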

How the data were processed

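Gene expression was measured on 1 array per sample in 2 samples of splenic DCs, vehicle and IL-27. RNA-derived material was fragmented and biotin-labelled with an Affymetrix kit, per the labels' protocols. The values are the deposited linear intensity of 28815 probe sets as processed by the authors. How they were corrected, summarised and scaled is not given in the sources used here. The build was mm8, per the submitters' processing notes, so coordinates are printed only for RefSeq sequences of GRCm38.p6.

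GEO's platform annotation named the probe sets: 21780 had 1 gene, 1605 several and the other 5430 none here. A RefSeq gene ID was matched for 21689 of the 21780, and changed no symbol. A gene with several probe sets took the one with the highest mean log2. Log2 was taken with no pseudocount. With 1 array per group no test was run, and precision is limited by their number.

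Genes were called by size (2-fold, brighter array at least 96.2). The genes and lists were chosen with earlier results of these data known. The named genes were the 10, all measured relatives, pathway genes set by name, up to 4 per list by size of difference, and cluster neighbours, with further list members added after their values were seen. Alternatives were quantile normalization, median centring, lowess (span 0.3), an offset of 16, other probe set rules, other level filters and a 1.5-fold rule. The olfactory limit and the motif spacing were added after seeing the data. Calls and scalings were tried on simulated data as a check of the code only. The simulated noise was smaller than the spread between the arrays, and the planted shifts went past the 2-fold rule in genes above the level minimum. It therefore cannot show how calls fare near that rule or near background. Python 3.11.15, pandas 2.3.3 and statsmodels 0.14.6 were used. Near-identical relatives can cross-hybridise, so single GBP and IRG values are uncertain.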

Additional observations from a re-analysis of the deposited data

Results flagged for a closer look

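Signal from family genes without a probe set of their own appeared in 3 probe sets outside the comparison above, each above the olfactory limit of the vehicle array. None of these values belongs to 1 gene. The probe set given jointly to Gbp2 and Gbp2b had 496 with vehicle and 204 with IL-27, 2.43-fold lower, while the probe set of Gbp2b alone had 78.9 and 77.0. The probe set given jointly to 6 genes of the Gbp4 cluster, Gbp6 among them, had 584 and 268, 2.18-fold lower. The probe set given jointly to Irgm2 and Igtp had 282 and 176, 1.60-fold lower and short of the rule of size.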

How the results depend on the processing

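The median of the 6 measured genes ranged from -1.11 to -0.90 under the other scalings and probe set rules. The 36 single differences recomputed for these genes include those with the mean or the lowest probe set. These were fixed in advance to agree, because each gene has 1 probe set. Of all 36, 32 kept their call and moved by under 1.5-fold, and 4 changed call. They are those of Gbp7 given above and those of Iigp1 with median centring and with the level trend removed, which are not read because its IL-27 value lies within the olfactory range. With a 1.5-fold rule 5 of the 6 were lower. After removal of the level trend and after quantile normalization, in that order, the median of the IL-27 and type I signalling list turned from -0.17 to 0.049 and 0.0074, and that of the vacuole list from -0.21 to 0.13 and 0.088. Under both, these lists had 0 lower genes, and the vacuole list had 2 higher. The interferon-gamma signalling list turned to 0.044 with the trend removed, and had 0 lower genes under it, quantile normalization and the offset. Against the olfactory limit 3 of the 6 genes were lower, as were 2 of the related genes and 1 of the vacuole list. Causes were not tested. No paired analysis was possible because each group has 1 array. Low intensities on the IL-27 array limit the folds of Gbp3, Gbp4, Gbp7 and Iigp1.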

Other observations

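The IRG cluster that runs from Irgm1 to Ifi47 held probe sets past 2-fold and others near no difference, some of them given jointly to several genes. The probe sets given jointly to Tgtp1 and Tgtp2, the genes whose promoters carry the GAS and ISRE pair, had 456 and 537 with vehicle and 531 and 538 with IL-27. Those given jointly to 9930111J21Rik1 and 9930111J21Rik2, which alternate with the Tgtp genes in gene order, had 1302 and 1300 with vehicle and 507 and 430 with IL-27. They were 2.57-fold and 3.02-fold lower. Irgm1, at the end of this cluster, had 379 and 398. Gm12185, whose promoter window holds the same pair, had 82.1 and 59.0, below the level minimum on both arrays.

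The very large inducible GTPases, a further family of interferon-induced GTPases, were read by 3 probe sets given jointly to Gvin1 and its relatives. These had 554, 605 and 884 with vehicle and 236, 547 and 344 with IL-27, so that 2 of the 3 were past 2-fold lower and the other was 1.11-fold lower. Gm8995, which lies in the same cluster and which RefSeq lists as not protein-coding, has a probe set of its own with 737 (vehicle) and 517 (IL-27), 1.43-fold lower and short of the rule of size. Gvin1, Gm4070 and Gm8995 stood in the first list of other GBP and IRG genes and were taken out as neither GBP nor IRG. With Gm8995 that list had 10 measured genes and a median of -0.27, against -0.04 for the 9 without it. The joint values lie outside the comparison above, and none of these values has a replicate check.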
